A study of Mus musculus with 30 samples.

Results

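The genes described here are the fatty acid elongases and desaturases Elovl1, Elovl2, Elovl3, Elovl5, Elovl6, Fads1, Fads2 and Fads3 of the mouse. They were taken by symbol: every probe whose platform annotation names one of these 8 genes was used, which gave 14 probes among the 46643 on the array, and 8 genes of the 19406 named there. RNA of liver and of subcutaneous fat was measured on 30 Illumina bead arrays, 3 for each of 5 growth hormone receptor genotypes in each tissue. All mice were males aged 4 months, starved overnight before sampling. They carried the wild-type receptor (WT), a knock-in receptor cut short after amino acid 569 (569) or amino acid 391 (391), a knock-in receptor with an altered Box1 segment (Box1), or no receptor (KO). Genotype names refer to the arrays as labelled. These are changes of the germline, present in every tissue of the animal and not in liver or fat alone. As background, Box1 is the stretch next to the membrane that engages the kinase JAK2, the 391 truncation takes away the tyrosines on which the transcription factor STAT5 docks, and the 569 truncation takes away part of them.

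Elongases lengthen a fatty acid, as its coenzyme A ester in the endoplasmic reticulum, and catalyse the condensation that sets the pace of each round; the reduction, dehydration and second reduction steps are carried out by enzymes that all elongases share. Elovl6 extends palmitate to stearate and works downstream of fatty acid synthase, Elovl1 and Elovl3 act on longer saturated and monounsaturated chains, and Elovl2 and Elovl5 act on polyunsaturated chains. Fads2 introduces the first double bond in the conversion of linoleic and alpha-linolenic acid, Fads1 the later one that yields arachidonic acid and eicosapentaenoic acid, and Fads3 is their less well characterised relative. Elovl3 is known as a male-biased gene in mouse liver and as a cold-induced gene in brown fat, and Elovl6, Fads1 and Fads2 are known targets of the sterol regulatory element binding proteins (SREBPs).

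Fads1, Fads2 and Fads3 are neighbours on chromosome 19, Elovl3 lies elsewhere on that chromosome, and the remaining genes are on others. RefSeq promoter windows of assembly GRCm38.p6 were matched to 6 of the 8 genes, with 8 windows in all. No window was matched to Elovl3 or Fads1, so their promoters were not searched. The windows of Elovl6 and Fads2 are shown because these genes rose in liver in the mean of 391, Box1 and KO, and the window of Fads3 because it is the neighbour of Fads2 whose probes were not called. Each is the 250 bases before the annotated start, and capitals mark a match to 1 of the motifs searched.
Elovl6, chr3:129532136-129532385, plus strand: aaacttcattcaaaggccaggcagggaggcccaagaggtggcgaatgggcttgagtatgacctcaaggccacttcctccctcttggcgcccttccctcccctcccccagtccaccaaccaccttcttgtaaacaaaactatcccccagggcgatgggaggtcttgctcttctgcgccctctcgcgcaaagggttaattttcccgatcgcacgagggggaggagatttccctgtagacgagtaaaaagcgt
Fads2, chr19:10101504-10101753, minus strand: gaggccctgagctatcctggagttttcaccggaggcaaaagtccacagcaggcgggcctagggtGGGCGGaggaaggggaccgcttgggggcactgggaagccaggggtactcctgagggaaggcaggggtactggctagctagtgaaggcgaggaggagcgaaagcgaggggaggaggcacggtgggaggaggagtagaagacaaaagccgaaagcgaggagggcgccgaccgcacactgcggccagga
Fads3, chr19:10041298-10041547, plus strand: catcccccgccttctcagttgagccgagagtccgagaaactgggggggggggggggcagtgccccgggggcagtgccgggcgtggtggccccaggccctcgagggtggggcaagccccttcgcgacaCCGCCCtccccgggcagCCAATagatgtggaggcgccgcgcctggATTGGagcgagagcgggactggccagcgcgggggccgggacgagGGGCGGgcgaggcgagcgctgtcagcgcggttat
The motifs, read on both strands, were the STAT half-sites TTCNNNGAA, a sterol response element TCACNCCAC, the CCAAT box, an E-box CACGTG, the GC box GGGCGG and the TATA box TATAAA. No pair of matches shared letters in the 3 windows shown. The Elovl6 window held none, the Fads2 window held 1 GC box, and the Fads3 window held a CCAAT box on each strand and 2 GC boxes. The STAT half-sites and the sterol response element were found in none of the 8 windows, which do not cover Elovl3 or Fads1. Over all 32851 windows of this length, the STAT half-sites occurred in 7.02%, the sterol response element in 1.05%, the CCAAT box in 33.8%, the E-box in 6.02%, the GC box in 32.7% and the TATA box in 12.4%. A match is a match of letters, and these windows are a small part of what can control a gene.

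Each value is the ratio of a probe to its own median over the 15 arrays of its tissue, so 1 is the middle array of that tissue. Such a ratio holds no absolute level, and no level is compared between probes, genes or tissues. The 14 probes ranged from 0.07 to 9.38. Igf1, whose product carries much of growth hormone's effect on growth, fell in the livers of 391, Box1 and KO by both of its probes. The log2 differences from WT were −5.31, −5.30 and −4.39 by 1 probe and −4.14, −4.08 and −3.66 by the other. In fat neither Igf1 probe was called in these comparisons. Of 2 Ghr probes 1 fell in Box1 liver (−2.05) and differed by 0.23 in KO, and the other was called in neither (0.45 in Box1 and 0.34 in KO). Neither Ghr probe was lower in the livers labelled KO, and where the Ghr probes lie relative to the altered part of the gene is not known here. Defining markers of other tissues stood apart on some arrays. In liver, 13 of 14 pancreatic acinar markers and 10 of 13 skeletal muscle markers were over 2-fold their medians in 391 replicate 2, as were 11 of 14 pancreatic markers in 391 replicate 3. In either tissue the WT and 569 arrays came from a common slide, as did those of 391 and KO, and Box1 of both tissues lay on a slide of its own. The differences of 391, Box1 and KO from WT or 569 therefore cannot be told apart from the slide, whereas 569 against WT and KO against 391 were measured within a slide. In whole tissue, fewer cells of a type and less RNA per cell cannot be told apart.

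In liver, the elongase Elovl3 fell against WT in 391, Box1 and KO. Of the other genes, Elovl6 rose in Box1 and Fads1 in KO, each by 1 of its 2 probes, and Fads2 was called in no single mutant against WT. These 3 genes were higher in the mean of 391, Box1 and KO than in that of WT and 569, and Elovl1, Elovl2, Elovl5 and Fads3 did not pass the test. With limma and Benjamini-Hochberg adjustment over all 46643 probes, an adjusted p under 0.05 being called, 0 of the 14 probes were called in 569 against WT, where 0.00858% of all probes were, and 3 of the 14 had an unadjusted p under 0.05, as did 7.01% of all probes. In 391, 1 was called, lower, against 1.91% of all probes (0.427% lower). In Box1, 1 was called higher and 1 lower, against 1.32% (1.06% higher and 0.264% lower). In KO, 1 was called higher and 1 lower, against 1.93% (1.44% higher and 0.489% lower). The median difference of the 14 probes from WT was −0.15 in 569, 0.08 in 391, 0.15 in Box1 and 0.02 in KO, and that of all probes −0.02, 0.02, 0.02 and 0.01. When the mean of 391, Box1 and KO was set against the mean of WT and 569, 4 probes of 3 genes were higher and 1 was lower, against 9.61% of all probes called (8.69% higher and 0.915% lower). Fold changes below are on this relative scale, and n is 3 arrays in each group.

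**Figure D1:**
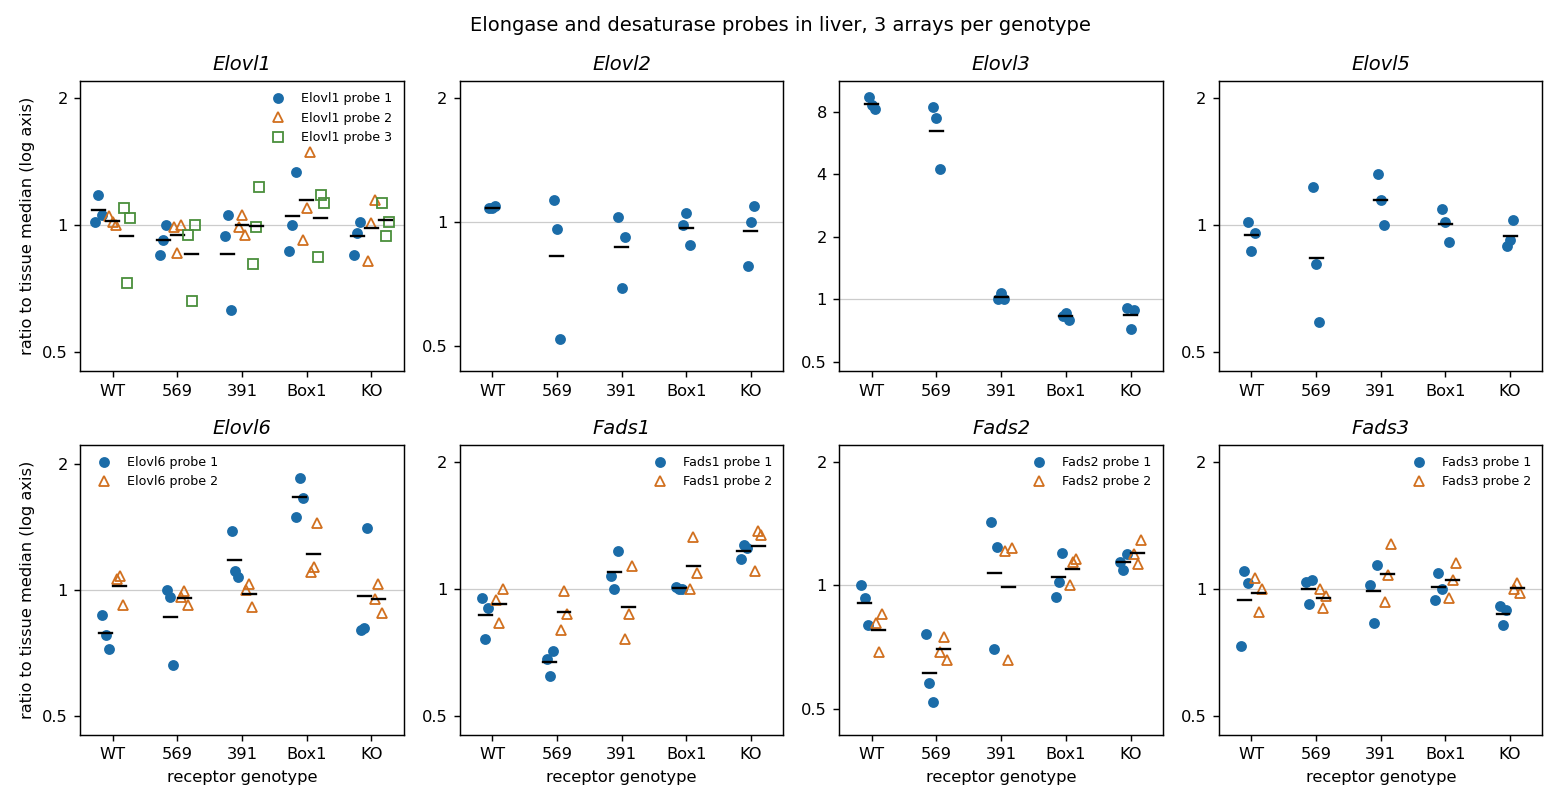
Ratio to the liver median (log axis) of every probe on every liver array, by receptor genotype, with a bar at the mean of the log values of each group of 3 arrays. Elovl3 lies between 4.23 and 9.38 in WT and 569 and between 0.72 and 1.07 in the other 3 genotypes.

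Elovl3 gave ratios of 9.38, 8.61 and 8.22 in WT and 8.47, 7.46 and 4.23 in 569. It gave 1, 1.07 and 1 in 391, 0.83, 0.86 and 0.79 in Box1, and 0.91, 0.72 and 0.89 in KO. The 6 arrays of WT and 569 were all above the 9 others, with no value between 1.07 and 4.23. The mean was 8.74 ± 0.59 (SD, n = 3) in WT and 0.84 ± 0.10 (SD, n = 3) in KO. Elovl3 fell 8.53-fold in 391 (95% interval 6.51 to 11.2; limma adjusted p = 1.2e-07), 10.6-fold in Box1 (8.06 to 13.8; adjusted p = 3.7e-08) and 10.4-fold in KO (7.97 to 13.7; adjusted p = 4.8e-08). Among all probes it ranked as the lower difference number 17 in 391, 15 in Box1 and 13 in KO. The 569 arrays lay below WT by 0.44 ± 0.18 (SE) on the log2 scale, which was not called (limma adjusted p = 0.67), and replicate 3 of 569 was the lowest of that group. The difference of 391 from 569 was called (−2.65 ± 0.18, adjusted p = 8.3e-07).

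Elovl6 was measured by a pair of probes that gave different answers. Probe 1, which targets the RefSeq transcript, gave 0.87, 0.78 and 0.72 in WT and 1, 0.96 and 0.66 in 569. It gave 1.38, 1.11 and 1.07 in 391, 1.49, 1.85 and 1.66 in Box1, and 0.8, 0.81 and 1.4 in KO. All 3 Box1 arrays were above the other 12, the 391 arrays were above WT and 569, and KO was divided, with 1 array as high as 391 and the other 2 among the WT and 569 values. It rose 2.11-fold in Box1 (95% interval 1.57 to 2.83; limma adjusted p = 0.013) and was not called in 391 (log2 difference 0.58, adjusted p = 0.19) or KO (0.30, adjusted p = 0.62). KO lay below Box1 by 0.78 (log2), which was not called either (adjusted p = 0.19). Over the 3 genotypes together it rose by 0.59 ± 0.13 (SE; adjusted p = 0.0083). Without WT replicate 2 or 3 or Box1 replicate 2 or 3 the Box1 difference stayed between 0.998 and 1.08 but lost its call, with adjusted p of 0.058, 0.074, 0.076 and 0.059 in that order. Probe 2, which targets a separate cDNA clone, was not called in any liver comparison (0.26 in Box1, adjusted p = 0.33), and its highest array, at 1.44, was Box1 replicate 3.

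Elovl1, which extends saturated chains to very long ones, had 3 probes, and their liver ratios lay between 0.63 and 1.49. None was called in any comparison, with differences from WT between −0.34 and 0.16. Elovl2, which makes the precursors of docosahexaenoic acid, gave 1.08, 1.08 and 1.09 in WT, and its lowest array was 569 replicate 3 at 0.52. Its 391 ratios of 1.03, 0.69 and 0.92 and its Box1 ratios of 0.98, 1.05 and 0.88 lay below WT without passing the test (−0.32 with limma adjusted p = 0.64 and −0.16 with 0.86). Elovl5, which acts on polyunsaturated chains after the Fads2 step, gave 1.02, 0.87 and 0.96 in WT, 1.23, 0.81 and 0.59 in 569, 1.32, 1.15 and 1 in 391, 1.09, 1.02 and 0.91 in Box1, and 0.89, 0.92 and 1.03 in KO. The genotypes overlapped, and its largest difference from WT, in 391, was 0.28 with a 95% interval from −0.13 to 0.68. The difference of 391, Box1 and KO from WT and 569 was 0.21 (adjusted p = 0.39), and among the alternatives run it was called without 569 replicate 1 alone (0.35, adjusted p = 0.024). The same array decided 391 against 569, at 0.46 (adjusted p = 0.23) with it and 0.73 (adjusted p = 0.0093) without it.

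Fads2 was measured by 2 probes to the same transcript, whose ratios over the 15 livers had a Pearson correlation of 0.85 (Spearman 0.92) and, after each genotype's mean was removed, of 0.77. Probe 1 gave 1, 0.93 and 0.8 in WT, 0.76, 0.58 and 0.52 in 569, 1.43, 0.7 and 1.24 in 391, 0.94, 1.02 and 1.2 in Box1, and 1.14, 1.09 and 1.19 in KO. Probe 2 gave 0.81, 0.69 and 0.85 in WT, 0.69, 0.75 and 0.66 in 569, 1.21, 0.66 and 1.23 in 391, 1, 1.14 and 1.16 in Box1, and 1.19, 1.13 and 1.29 in KO. Both probes were low in 569, and on both 391 replicate 2 was the lowest of the 9 arrays of 391, Box1 and KO. On probe 2 it was the 1 array of those 9 that lay within the range of WT and 569. That array is the one with raised pancreatic and muscle markers; their part in its Fads2 values was not tested.

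Neither Fads2 probe was called in a single mutant against WT. Probe 2 came nearest in KO (log2 difference 0.62 ± 0.18 SE, 95% interval 0.242 to 1.004, limma adjusted p = 0.10), where it was called when only the arrays compared were fitted (adjusted p = 0.014), as it was in Box1 (0.49, adjusted p = 0.045). Over the 3 genotypes together Fads2 rose by 0.55 ± 0.13 by probe 1 (adjusted p = 0.016) and by 0.57 ± 0.12 by probe 2 (adjusted p = 0.0055), about 1.46-fold and 1.48-fold. In the same contrast 4 of 9 endothelial markers were called higher (list median 0.30) and 0 of 9 macrophage markers (list median 0.29), beside 8.69% of all probes. At an unadjusted limma p under 0.05 there were 4 of 9 macrophage markers, beside 20.6% of all probes. The summed endothelial ratio was 8.11 to 10.1 in WT, 7.11 to 8.43 in 569, 9.81 to 11.6 in 391, 9.26 to 10.8 in Box1 and 9 to 10.2 in KO, and the summed macrophage ratio 7.97 to 8.55, 8.39 to 8.66, 7.14 to 11.6, 8.29 to 12.6 and 10.2 to 12.8. The part of these cells in the rises of Elovl6, Fads1 and Fads2 was not tested. Probe 1 lost this call without WT replicate 3 (0.50, adjusted p = 0.053) and without 569 replicate 3 (0.49, adjusted p = 0.0501). Without 391 replicate 2, probe 2 was called in 391 against WT (0.64, limma adjusted p = 0.0072). Without both 391 arrays that hold pancreatic transcripts its difference was 0.63, with only 1 array left in 391. Probe 1 was higher in 391 than in 569 by 0.81 ± 0.21 (adjusted p = 0.036), and this call was lost without any of 391 replicate 1 (0.61, adjusted p = 0.15), 391 replicate 3 (0.71, 0.11), 569 replicate 2 (0.77, 0.14) or 569 replicate 3 (0.69, 0.14), and under 3 of the 8 other alternatives, among them quantile normalization (0.56, adjusted p = 0.11).

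Fads1 probe 1, to the RefSeq transcript, gave 0.95, 0.76 and 0.9 in WT, 0.68, 0.62 and 0.71 in 569, 1.07, 1 and 1.23 in 391, 1.01, 1 and 1 in Box1, and 1.18, 1.27 and 1.25 in KO. The 5 genotypes came in the order 569, WT, Box1, 391 and KO, and WT and 569 did not overlap with the other 3. Neighbours in that order were not called apart in the comparisons made: 569 against WT differed by −0.37 (limma adjusted p = 0.35), Box1 against WT by 0.21 (adjusted p = 0.39), 391 against Box1 by 0.13 (adjusted p = 0.91), and KO against 391 by 0.17 (adjusted p = 0.70). It rose by 0.51 ± 0.10 in KO (adjusted p = 0.012), a 1.42-fold difference, and 391 was 0.34 above WT without a call (adjusted p = 0.10). The KO call was lost without WT replicate 2 (0.41, adjusted p = 0.067) or KO replicate 2 (0.49, adjusted p = 0.062). In 391 it was 0.71 ± 0.10 higher than in 569 (adjusted p = 0.0010), and over the 3 genotypes together it rose by 0.54 ± 0.06 (adjusted p = 8.7e-05), calls that held with any 1 array left out.

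Fads1 probe 2, to a separate cDNA clone, was not called; over the 3 genotypes together it stood at 0.27 (limma adjusted p = 0.090) and passed without 391 replicate 1 (0.32, adjusted p = 0.040). Its highest arrays were 2 of KO, at 1.37 and 1.34, and its difference of KO from WT was 0.46 (limma adjusted p = 0.15). It did not follow probe 1 in 391, where it gave 0.76, 0.87 and 1.13 against WT values of 0.94, 0.83 and 1. Fads3, the third gene of the cluster, had 2 probes whose liver ratios lay between 0.73 and 1.28. Its differences of 391, Box1 and KO from WT lay between −0.11 and 0.15, and over these genotypes together they were −0.02 by probe 1 (95% interval −0.22 to 0.17) and 0.12 by probe 2 (−0.04 to 0.27).

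**Figure D2:**
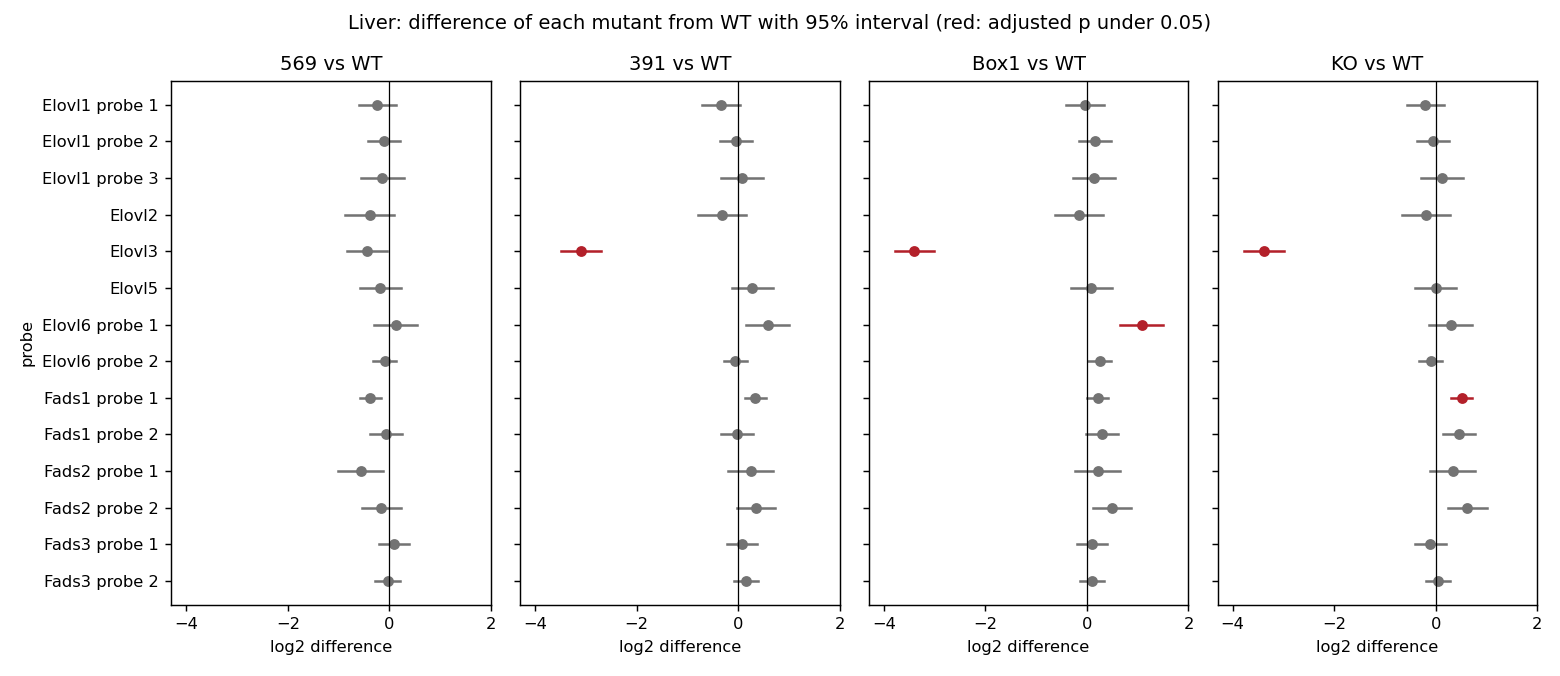
Fitted log2 difference of each mutant from WT in liver for the 14 probes (points), with 95% intervals (bars); red marks an adjusted p under 0.05. Elovl3 is near −3 in 391, Box1 and KO, and Elovl6 probe 1 in Box1 and Fads1 probe 1 in KO are the only called rises.

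Among the 3 genotypes with the larger losses of signalling, no probe of these genes was called in KO against 391, KO against Box1 or 391 against Box1, where 0.18%, 0.148% and 0.00429% of all probes were. At an unadjusted p under 0.05 the counts were 1, 3 and 3 of the 14, beside 8.19%, 8.71% and 6.08% of all probes. Elovl3 differed between KO and Box1 by 0.02 with a 95% interval from −0.37 to 0.41, and between KO and 391 by −0.29 with an interval from −0.68 to 0.10. Both intervals are narrower than the differences of Elovl3 from WT. Signal over background is unknown, so the intervals cannot show whether Elovl3 is equal in these genotypes or too dim to differ. In 391 against 569, 2 of the 14 probes (Fads1 probe 1 and Fads2 probe 1) were higher and Elovl3 was lower, against 4.7% of all probes (4.31% higher and 0.386% lower).

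Over the 15 livers the Pearson correlation of Elovl3 with Fads1 was −0.80 and −0.54 for its 2 probes, with Fads2 −0.59 and −0.76, and with Fads3 0.04 and −0.40. Within genotypes these were −0.28 and −0.09 for Fads1, 0.29 and 0.04 for Fads2, and −0.18 and −0.02 for Fads3, so the negative values with Fads1 and Fads2 were mainly between genotypes. Fads1 probe 1 correlated with Fads2 at 0.79 and 0.82 for the 2 probes of Fads2, and at 0.28 and 0.51 within genotypes. The genes most like Elovl3 over the 15 livers were Serpina1e (r = 0.98), Nat8 (r = 0.98) and Cyp4a12a (r = 0.97), and the most opposed was Sult2a1 (r = −0.99). Elovl3 separates the livers into 2 clusters, and within the 9 arrays of 391, Box1 and KO the same values were −0.69, −0.20, 0.71 and −0.41, so of these 4 the relation kept its sign for Cyp4a12a and Sult2a1. Elovl6 probe 1 was most like Pja2 (r = 0.90), 2010003K11Rik (0.89) and Cyp2b13 (0.89), with 0.90, 0.86 and 0.85 within those 9 arrays, and most opposed to F11 (−0.85). Fads1 probe 1 was most like Ncl (0.97), H2-Ke6 (0.95) and Ddb2 (0.95), and most opposed to Mpp4 (−0.88). Fads2 probe 1 was most like Psme3ip1 (0.94), Ap2m1 (0.93) and Hmgxb3 (0.92), and most opposed to Mucl2 (−0.83). Fads2 probe 2 was most like Mterf1a (0.94), Aldh4a1 (0.93) and Mien1 (0.93), and most opposed to Hacl1 (−0.87). These are the extremes of 19405 genes compared, all on the same arrays.

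Of the genes that work with the elongases and desaturases, few passed the test in a single mutant. In a list of 17 further elongation cycle and desaturase genes, 0 were called in 391, 1 higher and 1 lower in Box1, and 0 in KO. At an unadjusted limma p under 0.05 the counts were 7 in 391, 5 in Box1 and 4 in KO, beside 12.4%, 12.3% and 12.7% of all probes. Scd2, a stearoyl-CoA desaturase, gave liver ratios of 0.72, 0.71 and 0.66 in WT and 1.56, 2.4 and 2.29 in Box1, and the groups did not overlap. It rose by 1.56 ± 0.29 in Box1 (limma adjusted p = 0.014), a call lost without WT replicate 2 or 3 or Box1 replicate 2 or 3 (1.44 to 1.57, adjusted p 0.056 to 0.081). Scd3 fell by 0.41 (adjusted p = 0.040), a call lost without any 1 of the 6 arrays compared. Scd1, the main stearoyl-CoA desaturase of liver, differed by −0.35 in 391, −0.20 in Box1 and −0.14 in KO and was not called. With 391, Box1 and KO together, where 8.69% of all probes were called higher, 4 of the 17 were: Scd2 (1.23), Fads6 (0.75), the dihydroceramide desaturase Degs1 (0.51) and the dehydratase Hacd3 (0.40). Hacd1 was lower (−0.32), a call kept in 6 of the 15 fits that each left out 1 array. The median of the list was 0.09 and that of all probes 0.02. In this and the lists below a gene stands by its most variable probe over these same arrays, a choice not made for all probes. The share and the median of all probes are therefore not a like background for the lists.

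In a list of fatty acid synthesis genes and their regulators, of which 16 were measured, 3 were called higher in 391, 3 in Box1 and 1 in KO, and none lower, where 1.48%, 1.06% and 1.44% of all probes were called higher. Acaca, the acetyl-CoA carboxylase that commits acetyl-CoA to fatty acid synthesis, rose by 0.95 in 391 (limma adjusted p = 0.00516) and 1.09 in Box1 (adjusted p = 0.0020). Pparg, the lipogenic nuclear receptor, rose by 1.01 in 391, 1.24 in Box1 and 1.38 in KO. Srebf2, the SREBP of cholesterol synthesis, rose by 0.63 in 391 and 0.66 in Box1, calls lost without WT replicate 2 or 3 and without replicate 2 or 3 of 391 or of Box1. Without both 391 livers that hold pancreatic transcripts, which leaves 1 array in 391, Acaca stood at 0.82 and Srebf2 at 0.48 in 391. Srebf1, the SREBP of fatty acid synthesis, differed by −0.04, 0.03 and 0.22 and was not called, nor was Fasn, the fatty acid synthase, at 0.65, 0.84 and 0.03. With the 3 genotypes together, against the same 8.69%, 5 of 16 were higher (Pparg, Acaca, Srebf2, Ppara and Acly), with a list median of 0.37 against 0.02 for all probes. When all probes of a gene were averaged, the count in 391 was 0.

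Of 11 acyl-CoA synthetases and acyl transfer genes measured, 0 were called in a single mutant. At an unadjusted limma p under 0.05 there were 1 in 391, 0 in Box1 and 0 in KO, beside 12.4%, 12.3% and 12.7% of all probes. In the 3 genotypes together 3 were higher (Acsl4 at 0.53, Agpat3 at 0.38 and Slc27a5 at 0.26), again beside 8.69% of all probes. The Acsl4 call was lost without WT replicate 2 (adjusted p = 0.060) or 569 replicate 2 (0.071) and the Agpat3 call without WT replicate 2 (0.055) or 3 (0.053), while the Slc27a5 call was kept in 4 of the 15 fits that each left out 1 array. Of 12 measured genes that PPARalpha, the fatty acid sensor of fasting, is known to induce, 1 was lower, Scp2 (−1.38 in KO, −0.85 over the 3 genotypes). Over all probes 0.489% were called lower in KO and 0.915% over the 3 genotypes. At an unadjusted limma p under 0.05 there were 0 of the 12 in 391, 1 in Box1 and 2 in KO, beside the shares given above. The KO call of Scp2 was lost without WT replicate 3 or KO replicate 1 or 2 (limma adjusted p 0.056 to 0.067). Cpt1a and Cyp4a14 were not called. All these lists were chosen with earlier results of these data known.

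**Figure D3:**
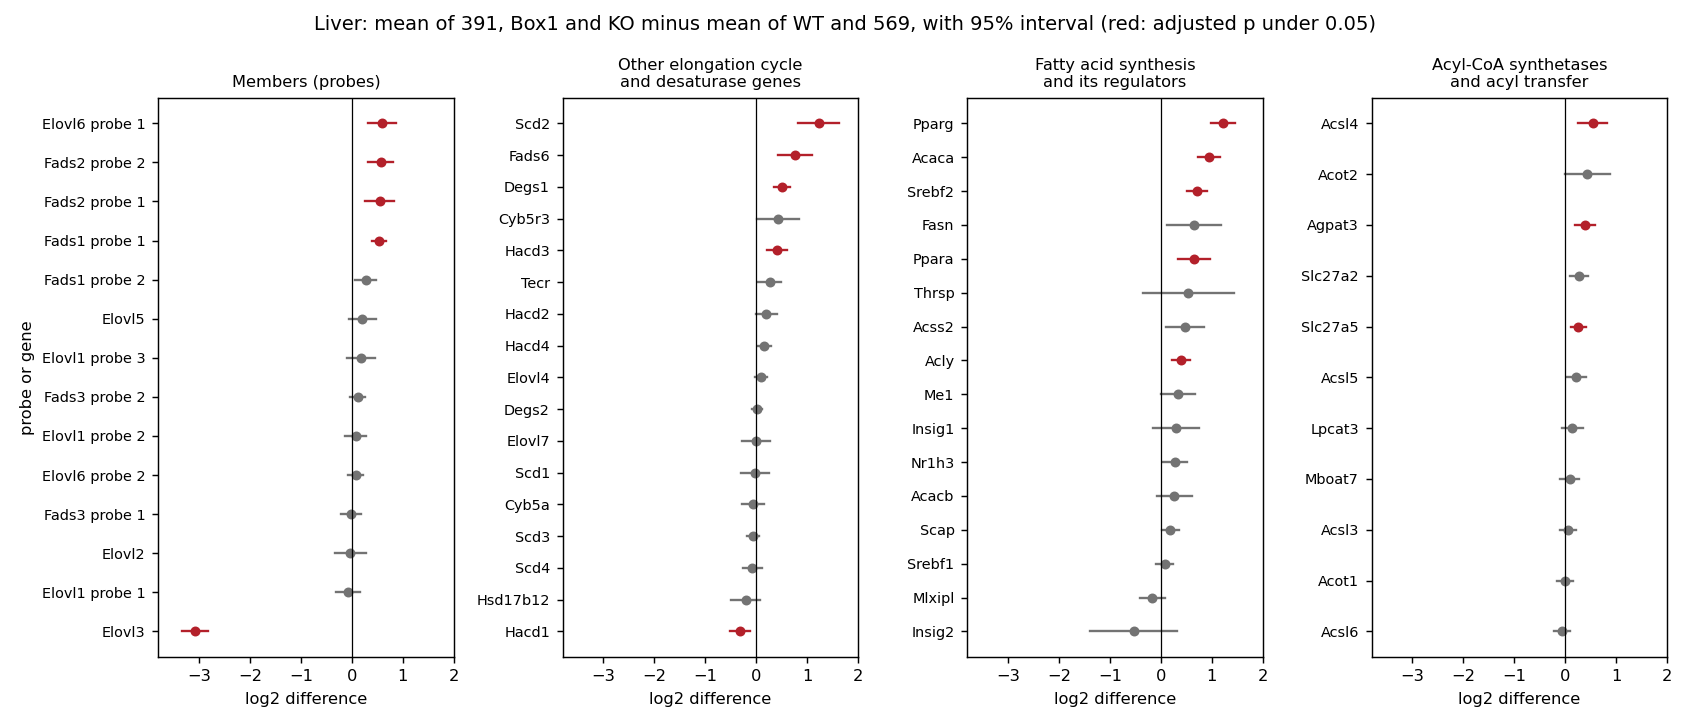
Log2 difference in liver between the mean of 391, Box1 and KO and the mean of WT and 569, with 95% intervals, for the 14 probes and for 3 lists of pathway genes; red marks an adjusted p under 0.05. Elovl3 stands at −3.07, and the called rises lie between 0.26 (Slc27a5) and 1.23 (Scd2).

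In subcutaneous fat no probe of these genes was called in any comparison. Over all probes, 0% were called in 569, 0.0129% in 391, 0.00214% in Box1, 0% in KO, 0.00858% in 391 against 569, 0.0172% in KO against 391, 0% in KO against Box1, 0.0129% in 391 against Box1 and 0.0193% in 391, Box1 and KO together. At an unadjusted p under 0.05, limma gave 1 of the 14 probes in 569, 0 in 391, Box1 and KO, 2 in 391 against 569, 0 in KO against either, 2 in 391 against Box1 and 2 in the 3 genotypes together. The shares of all probes at that threshold were 8.96% in 569, 4.58% in 391, 4.54% in Box1, 6.24% in KO, 12.1% in 391 against 569, 6.70% and 2.58% in KO against 391 and Box1, 4.82% in 391 against Box1 and 9.11% in the 3 genotypes together. Of the lists above, 0 genes were called in fat in any comparison with WT, and at most 3 genes of a list had an unadjusted limma p under 0.05 in a single mutant against WT. In the 3 genotypes together these counts were 2 of the 17 elongation and desaturase genes, 0 of 16 synthesis genes, 1 of 11 acyl transfer genes and 5 of 12 PPARalpha targets. For some probes the fat arrays of one genotype differed widely. The spread of Elovl6 probe 1 within genotypes was an SD of 1.05 on the log2 scale, against 0.28 in liver. That SD was smaller in fat than in liver for Elovl2, Fads1 probe 2, Fads2 probe 1 and Fads3 probe 1. It was larger in fat for the other probes, by little for Fads2 probe 2 (0.257 against 0.252).

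**Figure D4:**
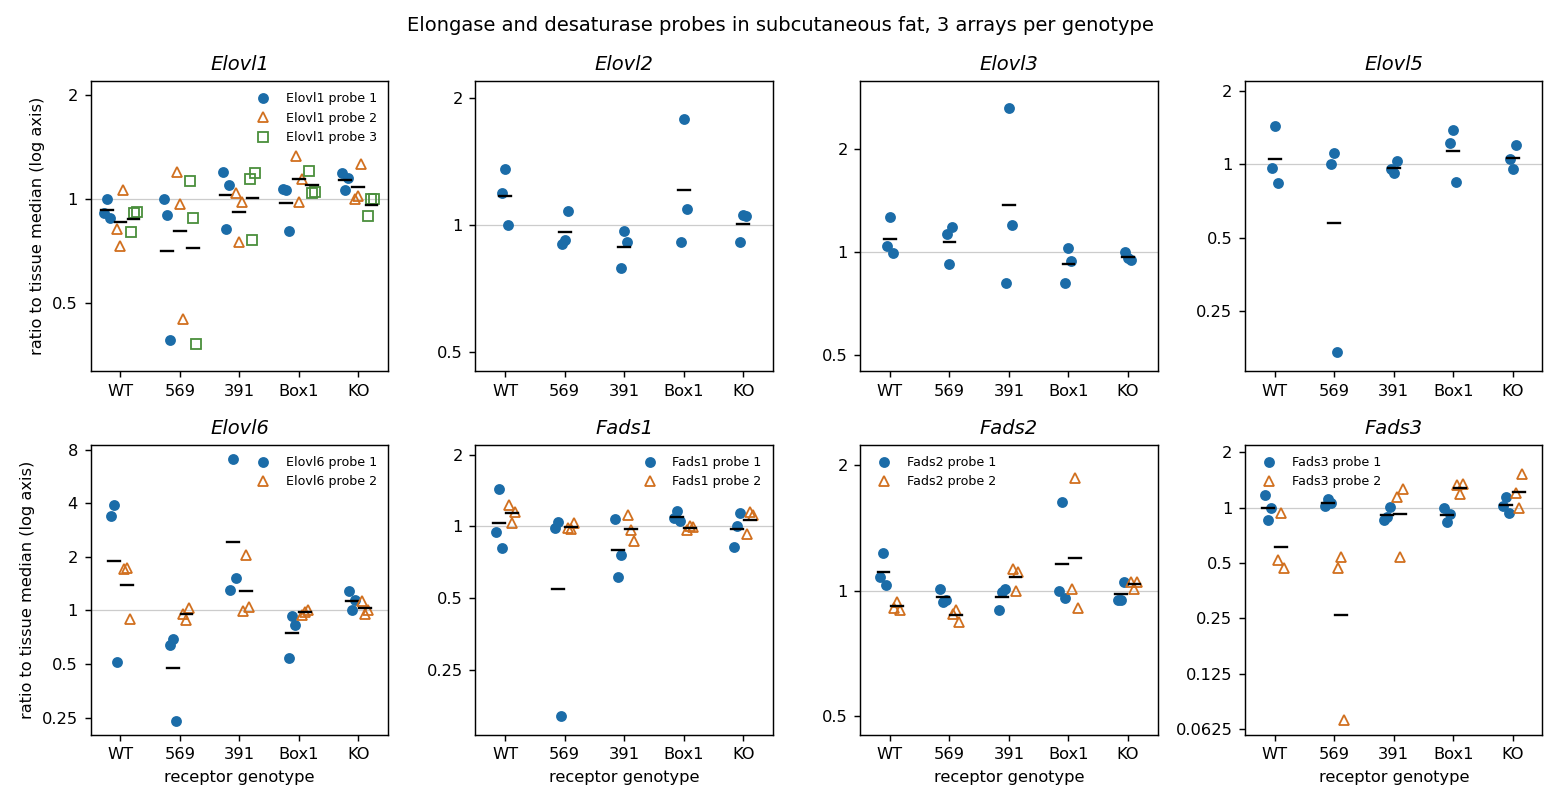
Ratio to the fat median (log axis) of every probe on every array of subcutaneous fat, by receptor genotype, with a bar at the mean of the log values of each group of 3 arrays. Single arrays stand apart in Elovl6, Elovl5, Fads1, Fads2 and Fads3.

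Elovl6 probe 1 had the widest range of the 14 in fat. It gave 3.39, 3.94 and 0.51 in WT, 0.64, 0.69 and 0.24 in 569, 1.3, 7.13 and 1.53 in 391, 0.54, 0.93 and 0.83 in Box1, and 1.28, 1 and 1.15 in KO. The highest array was 391 replicate 2, followed by WT replicates 2 and 1, and the lowest was 569 replicate 3. The difference of 569 from WT was −2.002 ± 0.773 (SE), with a 95% interval from −3.68 to −0.32, and was not called (limma adjusted p = 0.55). Elovl6 probe 2 followed it (r = 0.87 over 15 arrays, Spearman 0.75), at 1.7 and 1.73 in WT replicates 1 and 2 and 2.05 in 391 replicate 2. Across the 15 fat arrays probe 1 was most like Fasn (r = 0.95, Spearman 0.90). Further genes were chosen after the values were seen. Among them r was 0.88 with the brown fat gene Cidea and 0.79 with Ucp1, the uncoupling protein of brown fat. With the synthesis genes Acly and Acaca it was 0.80 and 0.76, with Adipoq 0.50 and with the muscle gene Acta1 −0.46. Each r was also taken without the 2 arrays on which the other gene lay farthest from its own median. These 2 arrays may differ between genes. It was then 0.92 for Fasn, 0.76 for Cidea, 0.55 for Ucp1, 0.74 for Acly, 0.66 for Acaca, −0.20 for Adipoq and −0.51 for Acta1.

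Marker genes of other cell types moved with these fat arrays. In 391 replicate 2, where Elovl6 probe 1 and Elovl3 (2.62) were highest, Ucp1 stood at 13.94 and 5 of 9 brown adipocyte markers were over 2-fold their medians. In WT replicate 1, also with 5 of 9, Ucp1 stood at 7.8 and Elovl3 at 1.04. Apart from 391 replicate 2, Elovl3 lay between 0.81 and 1.26 on the fat arrays.

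In 569 replicate 3, 8 of 9 adipocyte markers were under 0.5 of their medians (Adipoq at 0.21) and 13 of 13 skeletal muscle markers were over 2-fold, with a summed ratio of 587.3. On the same array 8 of 9 macrophage, 7 of 9 endothelial and 7 of 10 lymphocyte markers were also under 0.5 of their medians. The low lymphocyte markers were not particular to it or to 569. Their count was also 7 of 10 in the other 569 fat arrays, WT replicate 2, Box1 replicate 3 and KO replicate 2. In KO replicate 3 it was 6 of 10. Replicate 3 of 569 was the lowest of the 15 for Elovl5 (0.17), Fads1 probe 1 (0.16), Fads3 probe 2 (0.07) and the 3 probes of Elovl1 (0.39, 0.45 and 0.38). Muscle markers were also over 2-fold for 12 of 13 in Box1 replicate 3 and 11 of 13 in 569 replicate 1, where Elovl5 stood at 0.85 and 1. In Box1 replicate 2, 7 of 10 hepatocyte markers were over 2-fold (list median 11.53), but Alb was not, at 1.32. That array was the highest for Elovl2 (1.79) and for Fads2 (1.63 and 1.87). WT replicate 2, also with 7 of 10, had Elovl2 at 1.36 and Fads2 at 1.23 and 0.94. The part of these cells in the values was not tested.

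**Figure D5:**
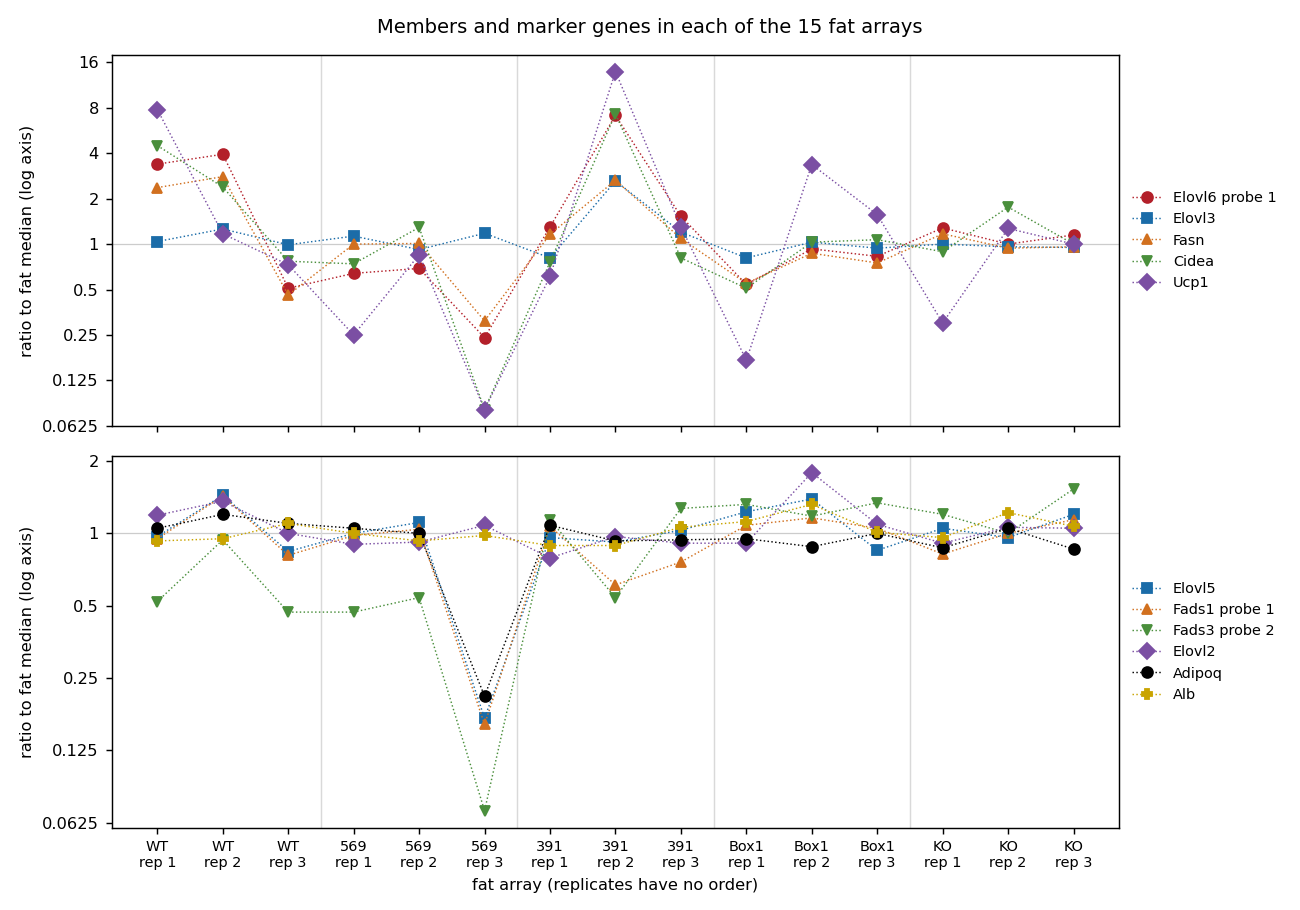
Ratio to the fat median (log axis) on each of the 15 fat arrays; the upper panel has Elovl6 probe 1, Elovl3, Fasn, Cidea and Ucp1, and the lower panel Elovl5, Fads1 probe 1, Fads3 probe 2, Elovl2, Adipoq and Alb. In 391 replicate 2 the genes of the upper panel are at or near their highest, and in 569 replicate 3 Elovl5, Fads1 probe 1, Fads3 probe 2 and Adipoq are all at their lowest.

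Fads3 probe 2 had the lowest p of the 14 in fat. It gave 0.52, 0.94 and 0.47 in WT and 0.47, 0.54 and 0.07 in 569. It gave 1.14, 0.54 and 1.27 in 391, 1.32, 1.18 and 1.34 in Box1, and 1.2, 1 and 1.53 in KO. All Box1 and KO arrays were above WT and 569, and 391 replicate 2 lay among them. The difference of the 3 genotypes from WT and 569 was 1.499 ± 0.403 (SE), and it was not called (limma adjusted p = 0.30). Without 569 replicate 3, the array low in adipocyte, macrophage and endothelial markers, it was 1.02 (limma adjusted p = 0.10). Fads3 probe 1 gave 0.84 to 1.17 over the same arrays, with a difference of −0.12 (adjusted p = 0.68).

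Whether the tissues differed was tested directly as the liver difference minus the fat difference, with all 30 arrays in 1 limma fit. Elovl3 was called in 391 (−3.42 ± 0.38 SE, adjusted p = 1.5e-05), Box1 (−3.16 ± 0.38, adjusted p = 5.0e-05) and KO (−3.21 ± 0.38, adjusted p = 3.5e-05), where 0.227%, 0.148% and 0.341% of all probes were. Its fat differences from WT were 0.32, −0.24 and −0.17. With a prior of the spread that is robust and follows the mean, the limma adjusted p of the called differences between tissues rose to 0.28, 0.55 and 0.25. The mean in that prior is a probe's average log2 ratio and holds no expression level. With the 3 genotypes together the difference between tissues was −3.06 ± 0.24 (adjusted p = 2.4e-08, 0.866% of all probes called), and it kept its call under that prior (adjusted p at most 0.017 over the alternatives). No probe was called in 569 against WT (0% of all probes), nor were the other 13 probes in the remaining contrasts. For Elovl6 probe 1 the difference between tissues in Box1 was 2.42 (adjusted p = 0.64), with a 95% interval from 0.70 to 4.14, so its rise in liver was not shown to differ from fat. It was called without fat WT replicate 3 (3.37, adjusted p = 0.038).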

How the data were processed

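RNA of liver and subcutaneous fat was measured on 30 Illumina bead arrays, 3 per genotype and tissue, per the labels. The authors deposited ratios: each probe is given relative to its own tissue median, since the median over 15 arrays was exactly 1 for all 46643 probes in both tissues. They carry 2 decimals. Array medians lay between 0.98 and 1.01. How background was treated and arrays normalized is not stated in the labels, and signal over background is unknown, so no filter on dim probes was possible.

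Ratios were taken to log2 without an offset (16 had been planned for intensities) and fitted with limma 3.58.1 in R 4.3.3 (lmFit, contrasts.fit, eBayes), 5 genotypes of a tissue per fit, and 30 arrays for contrasts between tissues. Tests were two-sided, with Benjamini-Hochberg adjustment over all 46643 probes, called at an adjusted p under 0.05. The method was tested on simulated data. The labels do not say that arrays are separate animals, so p-values reflect the spread among these samples alone, possibly technical, and 3 arrays per group limit the precision.

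Probes were named by the platform annotation (1 symbol for 32794 probes, several for 55, none for 13794). Each probe of the 8 genes is given by itself. Other genes are represented by their most variable probe (largest SD) in a tissue. That SD includes differences between genotypes, so the counts and medians of lists may exceed those of all probes for this reason. From each list up to 4 called genes with the largest differences were named, beside further genes of known role chosen after their values were seen, and for each called probe the 3 most alike genes and the most opposed. Sequences are from RefSeq, assembly GRCm38.p6. The genes and lists were chosen with earlier results of these data known. Alternatives were quantile normalization, median centring, an offset of 0.1, leaving out probes with a ratio at or under 0.1, array weights, a robust trended prior, a fit on only the arrays compared, leaving out single arrays, and leaving out both 391 livers with pancreatic transcripts. The last of these leaves 1 array in liver 391.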

Additional observations from a re-analysis of the deposited data

Results flagged for a closer look

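The difference of Elovl3 from WT differed between liver and fat by limma's interaction contrast. Liver minus fat, it was −3.42 in 391, −3.16 in Box1, −3.21 in KO and −3.06 for the mean of 391, Box1 and KO against the mean of WT and 569 (log2). In all 4 contrasts the liver difference lay between −3.40 and −3.07 and the fat difference between −0.24 and 0.32. Its liver arrays fell 9 of 9 below those of WT and 569, and its fat arrays overlapped. With the robust trended prior the limma adjusted p was 0.28 in 391, 0.55 in Box1 and 0.25 in KO, and only the contrast of means kept its call. The ratios hold no level, so whether Elovl3 was detected in fat is unknown.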

How the results depend on the processing

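Elovl3 kept its direction and its call in liver in 391, Box1, KO, 391 against 569 and the 3 genotypes together, under all alternatives run and with any 1 array left out; over the other alternatives the difference lay between −3.12 and −2.47 in 391, −3.41 and −2.88 in Box1, and −3.39 and −2.80 in KO. Of the 14 probes, the number called in Box1 against WT, 2, was 1 to 2 with 1 array left out, and that in KO against WT, 2, also 1 to 2; with only the arrays compared each was 3, by Fads2 probe 2. In 391 against WT, 1 became 1 to 2 with 1 array left out, by Fads2 probe 2. Between tissues, the robust trended prior took the count from 1 to 0 in 391, Box1 and KO; the cause was not tested. For the 3 genotypes together between tissues, 1 became 2 with quantile normalization and 2 with array weights, both by Fads3 probe 2. With 1 array left out it was 1 to 3, the 3 without fat 569 replicate 3 (Elovl3, Fads1 probe 1 and Fads3 probe 2). In Box1 between tissues it was 1 to 2, the 2 without fat WT replicate 3 (Elovl6 probe 1). Directions were compared where the value or its alternative was called, and none reversed. Over all probes in liver, 890 calls in 391 against WT became 260 with only the arrays compared. With 1 array left out they were 379 to 980. In Box1, 616 became 390 with the robust trended prior, 1110 with only the arrays compared and 251 to 984 with 1 array left out. In KO, 899 became 677 with the robust trended prior, 1230 with only the arrays compared and 406 to 873 with 1 array left out. In 391 against 569, 2190 became 538 with only the arrays compared. With 1 array left out they were 698 to 2451. In fat, 0 of the 14 probes were called under every alternative run, but the few calls over all probes were unstable: in 391 against 569, 4 became 0 to 225 (225 with only the arrays compared) and 1 to 73 with 1 array left out (73 without 569 replicate 3); in KO against WT, 0 became up to 75 with only the arrays compared; in KO against 391, 8 became 3 to 123; in 391 against WT, 6 became 1 to 24; and in the 3 genotypes together, 9 became 2 to 48 and, with 1 array left out, 2 to 121 (121 without 569 replicate 3). No paired analysis was possible because the labels give no replicate numbers. The slide could not be fitted as a block, since each group lies on 1 slide. Signal over background, which would limit dim probes, is unknown.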
